A study of Mus musculus with 6 samples.

Results

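The 38 genes described here encode proteins that fold new proteins in the endoplasmic reticulum (ER), remove those that fail to fold (ER-associated degradation, ERAD), or carry the unfolded protein response (UPR). They were chosen by what they are known to do, and the rule uses no measured value. All 38 were among the 24661 genes in the files, and all had counts in every mouse. RNA was sequenced from whole olfactory mucosa, labelled olfactory epithelium, of 3 wild-type mice and 3 mice without the receptor transporting proteins RTP1 and RTP2 (Rtp1-/-;Rtp2-/-, RTP1,2DKO), all labelled strain C57BL/6 and postnatal day 21. RTP1 and RTP2 help odorant receptors (ORs) to leave the ER, so the comparison asks whether RNA of the folding and stress genes differs when receptors stay there. Per the methods, the groups were sex-matched siblings from the same litters, with both males and females. The mutant alleles replace the coding regions in every tissue and were made in ES cells of mixed 129/B6 origin, so that a segment of 129 chromosome near the targeted genes may remain despite the backcross.

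In the ER, the chaperone BiP (Hspa5) holds unfolded chains, calnexin and calreticulin hold glycoproteins, and protein disulfide isomerases form disulfide bonds. Misfolded chains are passed through the HRD1 ligase complex to the cytosol and destroyed. Unfolded protein in the ER activates the sensors PERK (Eif2ak3), IRE1 (Ern1) and ATF6. IRE1 cuts a short stretch out of Xbp1 RNA, ATF6 is cleaved to a transcription factor that drives chaperone genes, and PERK phosphorylates eIF2α, which lowers translation while raising that of ATF4 and ATF5. In olfactory sensory neurons (OSNs), PERK and ATF5 are known for a feedback by which the first OR expressed stabilizes its own choice. Since ATF4 and ATF5 are controlled by translation and the sensors by phosphorylation or cleavage, levels of their RNA do not measure their activity.

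The stretch that IRE1 removes is shown because it makes the best known RNA readout of the response. In the GENCODE M21 transcript Xbp1-201 it lies in the coding part of exon 4 of 5, at chr11:5524279-5524304 of GRCm38, plus strand. Its 26 bases are in capitals, with 3 bases on each side in lower case:
Xbp1: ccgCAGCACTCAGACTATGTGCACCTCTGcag
With these bases the reading frame runs for 267 codons, and without them for 371. The pattern C, any base, G, cut, C, any base, G at both ends of a stretch of 26 bases occurred 2 times in the coding part of that transcript. The other place, in exon 1, would shorten the frame to 73 codons.

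Promoter sequences are shown because many of these genes share elements through which the response is known to act. RefSeq promoters (GRCm38.p6, from 250 bases before to 50 bases after each start) were found for 34 of the 38 genes, all but Atf6, Hyou1, Manf and Derl1, and both strands were searched. The ER stress response element (ERSE), CCAAT, then 9 bases of any kind, then CCACG, was present in 9 of the 34 and in 0.137% of the 27025 genes with a promoter, while 0 of 98 other pathway genes held it. The 9 sites follow, read on the strand of the element, with the fixed letters in capitals. Hsp90b1 held a further copy on the opposite strand.
Hspa5, chr2:34772020-34772048: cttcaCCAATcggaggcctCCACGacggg
Hsp90b1, chr10:86705633-86705661: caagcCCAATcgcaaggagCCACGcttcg
Calr, chr8:84847070-84847098: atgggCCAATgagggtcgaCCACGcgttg
Canx, chr11:50325795-50325823: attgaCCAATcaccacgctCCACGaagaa
Pdia6, chr12:17266486-17266514: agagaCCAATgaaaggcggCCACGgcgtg
Dnajc3, chr14:118937822-118937850: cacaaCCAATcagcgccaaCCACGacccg
Creld2, chr15:88819515-88819543: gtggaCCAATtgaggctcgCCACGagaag
Syvn1, chr19:6046527-6046555: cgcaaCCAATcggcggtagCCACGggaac
Derl3, chr10:75893237-75893265: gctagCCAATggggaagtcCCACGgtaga

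The shorter ERSE-II is ATTGG and CCACG with 1 base of any kind between them. It was present in 2 of the 34 promoters, in 1 of the 98 other pathway genes and in 0.0444% of all genes with a promoter.
Herpud1, chr8:94386368-94386396: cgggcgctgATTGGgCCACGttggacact
Dnajb11, chr16:22857843-22857871: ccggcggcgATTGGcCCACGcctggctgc
The ATF4-type element TGATGNAA was found in 4 of the 34, in 15 of the 98 other pathway genes and in 4.51% of all genes. The sites in the amino acid and stress genes follow, and Herpud1 held one beside its ERSE-II.
Asns, chr6:7693215-7693242: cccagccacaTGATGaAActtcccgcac
Trib3, chr2:152344029-152344056: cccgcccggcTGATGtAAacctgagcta
Chac1, chr2:119351039-119351066: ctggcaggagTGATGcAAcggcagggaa
Herpud1, chr8:94386307-94386334: gggtgcgggcTGATGcAAcccgccgtgg
The XBP1-type element TGACGTGG was found in the promoter of Vcp alone among the 34, in 3 of the 98 other pathway genes and in 0.714% of all genes. A match of letters is a description of the window and not a bound site. None of the 34 genes held both an ERSE and an ATF4-type element.

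The targeted genes went with the labels. The wild-type mice had 20521.9, 25300.9 and 13542.6 normalized counts of Rtp1 (counts divided by the size factor of the mouse, always given in the order of mice 1 to 3), and RTP1,2DKO had 90.6, 85.5 and 108.8. Rtp2 had 7156.7 to 9510.5 against 26.2 to 58.0. Total counts per mouse lay between 31125410 and 41636996. OSN markers were present in all mice, and the FPKM (counts scaled to the effective length and to the total count) of 9 markers of mature OSNs summed to 3171 to 4328 in the wild-type and 1320 to 1578 in RTP1,2DKO. Of these markers, 8 of 9, all but Gng13, were lower past the threshold (Omp, Cnga2, Cnga4, Adcy3, Ano2, Cngb1, Slc17a6 and Stoml3). The immature OSN markers summed to 646.5 to 910.1 and 912.3 to 1085 FPKM, with 2 of 9 called higher (Gap43 and Gng8). With the mice paired by number, Gap43 was not called (adjusted p = 0.0592), and Stmn1 (adjusted p = 0.041) and the precursor marker Top2a (adjusted p = 0.0211) were. Of the markers of OSN precursors, sustentacular cells, Bowman glands and other secretory cells, horizontal basal cells, respiratory ciliated cells, immune cells, plasma cells, ensheathing glia and red blood cells, 0 were called with edgeR's quasi-likelihood test, although 5 of the 7 precursor markers and all 5 red blood cell markers had an unadjusted p under 0.05 and a higher mean in RTP1,2DKO. With DESeq2, 1 precursor, 1 ciliated and 2 red blood cell markers were called. In such bulk samples, fewer cells of a type and less RNA per cell cannot be told apart.

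Counts also moved with transcript length, and wild-type mouse 1 stood apart in this. Among 13900 genes with a mean of at least 100 normalized counts, the median log2 fold change (RTP1,2DKO over wild-type) was 0.19 for the 942 genes with an effective length under 500 bases, 0.09 from 500 to 1000, 0.04 from 1000 to 2000, 0.00 from 2000 to 4000 and -0.04 for the 3167 longer genes. The median deviation of wild-type mouse 1 from the mean of the 6 mice, on the log2 scale, was -0.269 in the shortest class and 0.13 in the longest. In the other mice, that of the shortest class lay between -0.014 and 0.161. These values stand beside the results for short genes, and their part in them was not tested.

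Per length, the genes ranged widely in the wild-type. Sec61b, a subunit of the channel through which new chains enter the ER, had the most at 798 FPKM, although its effective length was only 94.6 bases, which makes this level uncertain. It was followed by the disulfide isomerase P4hb at 483 FPKM, calreticulin (Calr) at 245, Atf4 at 243, the isomerase Pdia3 at 222, Atf5 at 180, the HSP90 chaperone of the ER (Hsp90b1) at 180, Xbp1 at 173 and Hspa5 at 162. Calr and Atf4 overlapped in their ranges over the 3 mice, as did Atf5 and Hsp90b1. The lowest were Chac1 at 5.16, Ern1 at 5.30, Trib3 at 6.45, Nfil3 at 6.78 and Ddit3 at 9.72 FPKM. The transcription factors Atf4, Atf5 and Xbp1 therefore lay among the chaperones in level, and several genes that ATF4 is known to drive lay at the lower end. Ern1 was the lowest of the sensors, with Eif2ak3 at 19.5 and Atf6 at 21.8 FPKM.

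**Figure D1:**
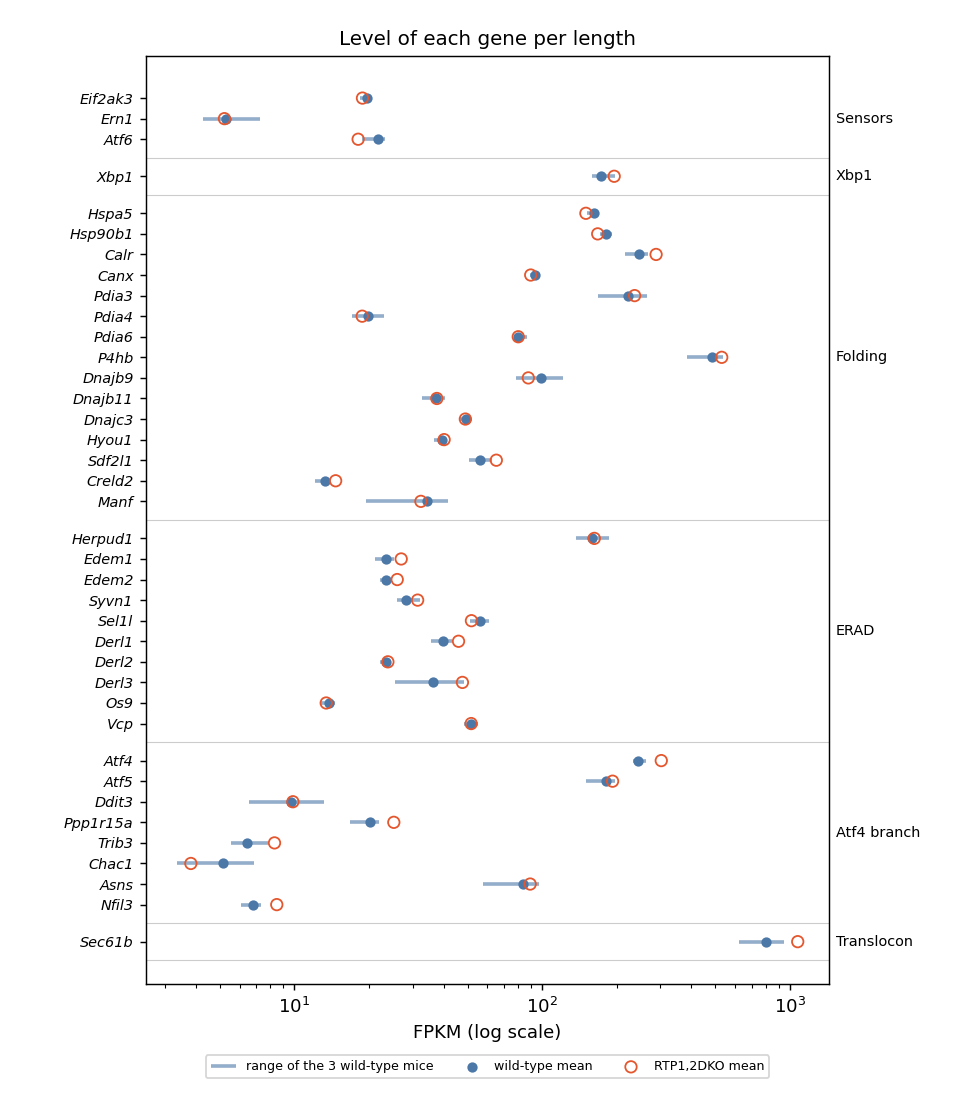
Level of each of the 38 genes in FPKM on a log axis, by role, with the mean (filled point) and range (bar) of the 3 wild-type mice and the mean of the 3 RTP1,2DKO mice (open circle). Sec61b and P4hb are highest, Chac1 and Ern1 lowest, and the open circles lie close to the filled points.

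None of the 38 genes passed the threshold in the comparison of RTP1,2DKO with wild-type (edgeR's quasi-likelihood test, adjusted p under 0.05 over 22152 genes). Over all genes tested, 3.63% passed (3.19% lower and 0.438% higher in RTP1,2DKO), and among those with a mean of at least 100 normalized counts 4.33% did. An unadjusted p under 0.05 was found for 5 of the 38, all higher in RTP1,2DKO (Atf4, Sec61b, Ppp1r15a, Trib3 and Sdf2l1), against 12.1% of all genes in either direction and 4.7% in that direction. DESeq2 called 0 of them as well (smallest adjusted p = 0.0815, for Atf4), with 6 at an unadjusted p under 0.05, beside 2460 of the 22152 genes tested. With edgeR and the mice paired by number, 0 were called (smallest adjusted p = 0.083, for Sec61b). In that fit 10 of the 38 had an unadjusted p under 0.05, beside 3005 of the 22152 genes tested. Without the pairing, the smallest adjusted p with edgeR was 0.176, again for Atf4. The median log2 fold change was 0.07, beside 0.02 over all genes tested, and 27 of the 38 were positive (71.1%, against 52.6% of all genes). Measured from the median of genes of like length, 24 of the 38 were above and 14 below.

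The intervals limit how large a change could have been missed. For 37 of the 38 genes, the 95% interval of the fold change lay within 2-fold in both directions, the exception being Chac1, and for 29 it lay within 1.5-fold. The intervals within 1.5-fold were those of all 3 sensors, Xbp1, all 15 folding genes and 9 of 10 ERAD genes. In the Atf4 branch this held for only 1 of 8 genes, and it did not hold for Sec61b. Among the 13900 genes averaging 100 counts or more, 9157 had an interval within 1.5-fold. In 6 genes (Sdf2l1, Edem1, Derl1, Atf4, Ppp1r15a and Trib3), each RTP1,2DKO mouse exceeded each wild-type mouse, which held for 7.17% of all genes tested and 8.27% of those with a mean of at least 100 counts. In 1 gene, Atf6, they all lay below, against 9.24% and 10.5%.

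**Figure D2:**
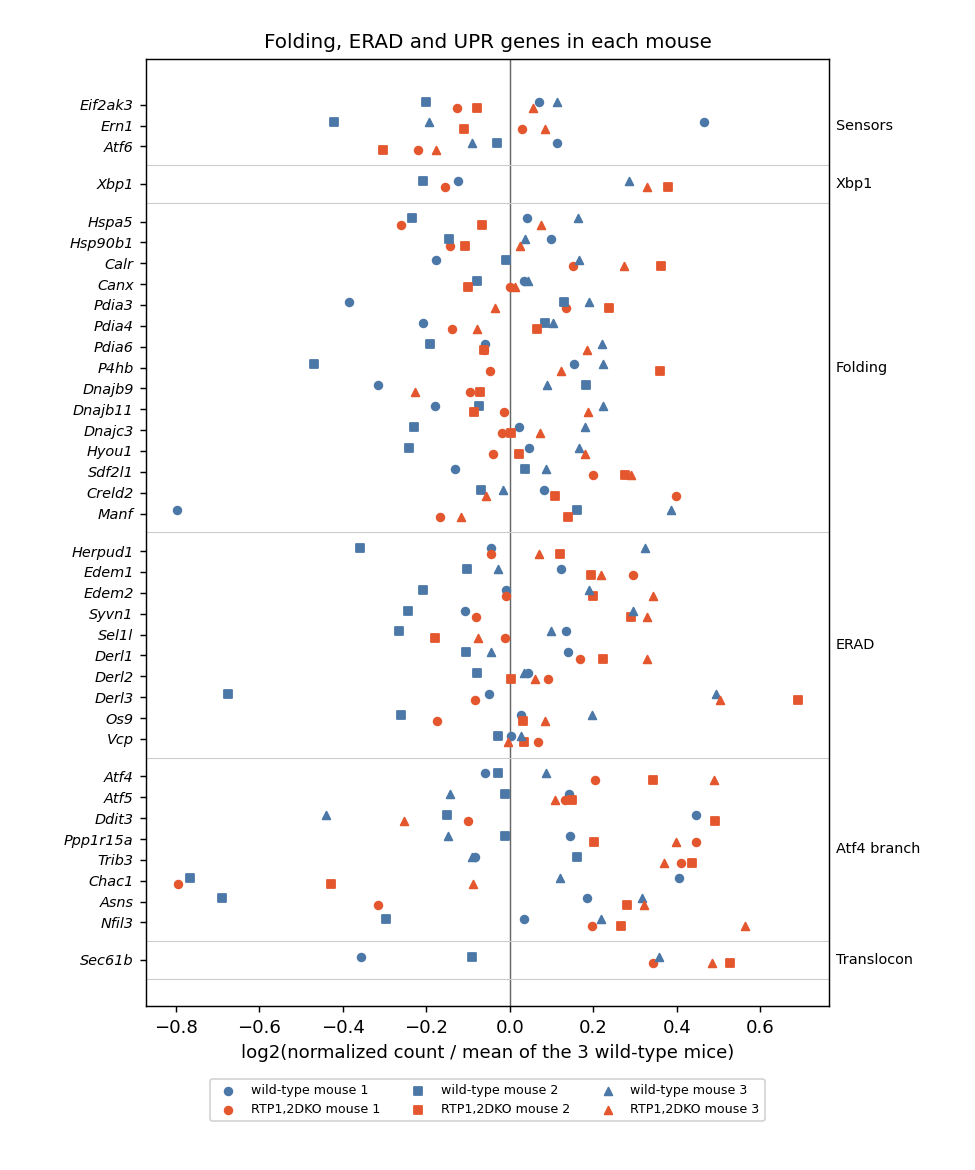
Each gene in each mouse, as the log2 ratio of the normalized count to the mean of the 3 wild-type mice (blue wild-type, red RTP1,2DKO; circles, squares and triangles are mice 1 to 3). The groups are intermixed for most genes, and wild-type mouse 2 is often the lowest blue point. The red points of Sdf2l1, Edem1, Derl1, Atf4, Ppp1r15a and Trib3 lie to the right of the blue ones, and those of Atf6 to the left.

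**Figure D3:**
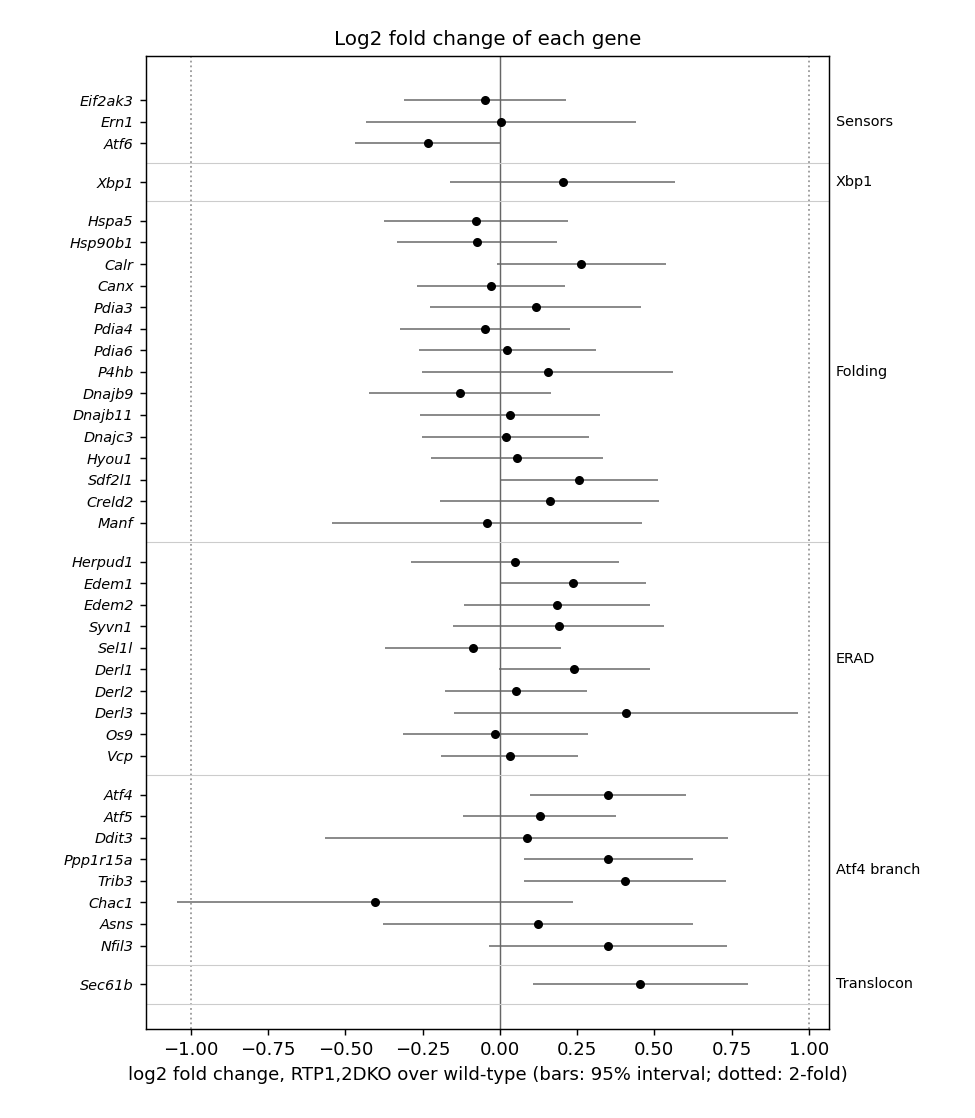
Log2 fold change of each gene (points) with its 95% interval (bars), by role, with dotted lines at 2-fold. The values run from -0.40 for Chac1 to 0.45 for Sec61b, and the Chac1 bar alone crosses a dotted line.

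The sensors showed no called change, with a median log2 fold change of -0.05. PERK (Eif2ak3, chr6:70844484-70905241), the eIF2α kinase of the ER, had 2767.1, 2295.6 and 2852.3 normalized counts in the wild-type mice and 2417.3, 2496.7 and 2739.9 in RTP1,2DKO, and the groups overlapped. Its log2 fold change was -0.05 ± 0.12 (SE), with a 95% interval of -0.31 to 0.21. IRE1 (Ern1, chr11:106397620-106487796), kinase and endonuclease, had 869.9, 471.3 and 551.3 counts against 643.8, 584.3 and 668.3. Its wild-type values bracketed those of RTP1,2DKO, with a log2 fold change of 0.00 ± 0.20. Atf6 (chr1:170704457-170868585) had 5624.1, 5090.1 and 4883.2 counts against 4465.8, 4209.5 and 4600.9. Every RTP1,2DKO mouse was below every wild-type mouse, and the log2 fold change of -0.23 ± 0.11 did not pass the threshold (adjusted p = 0.426). Atf6 has an effective length of 6907 bases, in the class whose median was -0.04.

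Xbp1 (chr11:5520641-5525993), which joins the IRE1 and ATF6 arms, had 9480.5, 8943.8 and 12597.7 normalized counts in the wild-type and 9287.7, 13438.6 and 12988.2 in RTP1,2DKO. Each group held low and high mice, and the log2 fold change was 0.20 ± 0.17 (adjusted p = 0.738). The files split Xbp1 between transcripts of 2264 and 2238 bases, a difference of 26 bases. That is the size of the stretch printed above, but the identity of the shorter transcript with the IRE1 product rests on this length alone. The shorter transcript took 6.86%, 7.53% and 7.58% of Xbp1 counts in the wild-type mice and 5.96%, 3.73% and 8.22% in the RTP1,2DKO mice. The means were 7.32% ± 0.40 (SD, n = 3) and 5.97% ± 2.24 (SD, n = 3; exact permutation test, two-sided, p = 0.4; the smallest p this design allows is 0.1). The highest and both lowest shares were in RTP1,2DKO mice, and no shift toward the shorter form was detectable, though kallisto's split of nearly identical transcripts carries an error that was not given.

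**Figure D4:**
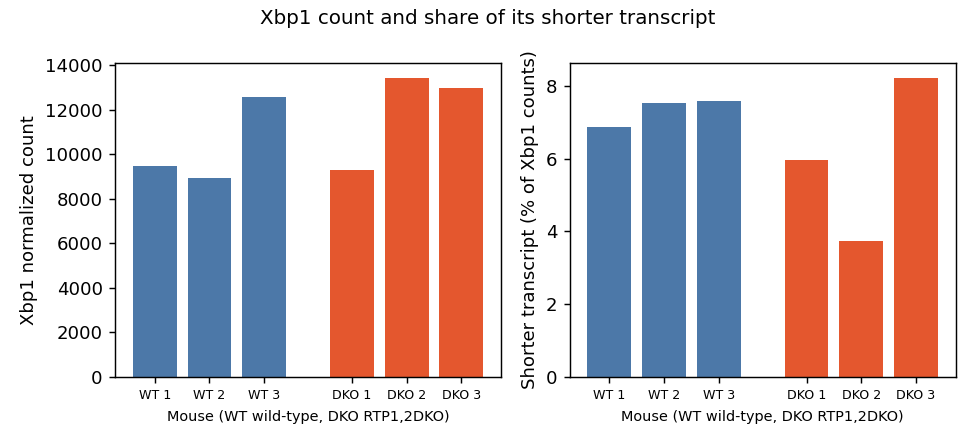
Xbp1 in each mouse (WT wild-type, DKO RTP1,2DKO), as the normalized count of the gene (left) and the percentage of its counts on the transcript that is 26 bases shorter (right). The groups overlap in both, with shares from 6.86% to 7.58% in the wild-type and 3.73% to 8.22% in RTP1,2DKO.

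The folding genes lay close to no change, with a median log2 fold change of 0.02 over 15 genes and values from -0.13 to 0.26. BiP (Hspa5, chr2:34772090-34776529), the most used marker of the response, had 11527.6, 9527.7 and 12548.1 normalized counts in the wild-type and 9342.5, 10689.9 and 11800.5 in RTP1,2DKO. The groups overlapped across nearly their whole range, and the log2 fold change of -0.08 ± 0.14 had a 95% interval of -0.38 to 0.22. Hsp90b1 had 12460.6 to 14767.4 counts in the wild-type and 12486.8 to 14023.0 in RTP1,2DKO, with a log2 fold change of -0.07 ± 0.12. For both of these genes the group means differed by less than the spread between mice. Of the BiP cofactors, 0 were called, with log2 fold changes of -0.13 for Dnajb9, 0.03 for Dnajb11, 0.02 for Dnajc3 and 0.06 for Hyou1, the nucleotide exchange factor.

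The lectin chaperones gave 0 calls. Calr (chr8:84842088-84846931) had 10454.9, 11741.2 and 13261.5 normalized counts against 13121.2, 15177.5 and 14285.7, with only wild-type mouse 3 above the lowest RTP1,2DKO mouse. Its log2 fold change was 0.26 ± 0.13 (adjusted p = 0.442), and 0.18 without wild-type mouse 1. Its membrane-bound relative Canx had 11382.4 to 12376.1 counts against 11207.0 to 12114.1 and a log2 fold change of -0.03 ± 0.11. Among the disulfide isomerases, P4hb ranged from 24267.6 to 39173.6 counts in the wild-type and from 32499.5 to 43119.6 in RTP1,2DKO, with a log2 fold change of 0.15 ± 0.19. The others were at 0.12 for Pdia3, 0.02 for Pdia6 and -0.05 for Pdia4. None of these isomerases separated the groups.

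Sdf2l1, a partner of BiP and its DnaJ proteins, was the folding gene whose groups did not overlap. It had 995.1, 1118.2 and 1156.6 normalized counts in the wild-type and 1251.8, 1320.3 and 1333.7 in RTP1,2DKO, and the log2 difference was 0.26 ± 0.12 (adjusted p = 0.409). At an effective length of 562 bases it is in the class whose median was 0.09, and without wild-type mouse 1, its lowest, the log2 fold change was 0.20. Sdf2l1 (chr16:17130138-17132383) lies on the chromosome of the targeted genes Rtp1 (chr16:23429133-23433960) and Rtp2 (chr16:23925548-23930794). Dnajb11 (chr16:22857845-22879634) lies there as well, closer to them. The part of a chromosome segment remaining from the ES cells in the values of Sdf2l1 and Dnajb11 was not tested. The secreted stress proteins differed in spread. Creld2 had 354.9 to 394.1 counts against 357.7 to 491.0, with a log2 fold change of 0.16 ± 0.16. Manf had 1125.4, 2184.9 and 2554.6 counts in the wild-type, the widest wild-type spread of the 38 genes at 2.27-fold, against 1740.8, 2151.4 and 1801.1 in RTP1,2DKO. The log2 fold change of Manf was -0.04 ± 0.23.

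The ERAD genes had a median log2 fold change of 0.12 over 10 genes, 8 of them positive, and 0 were called. Edem1, a lectin that takes trimmed glycoproteins out of the folding cycle, had 4670.4, 3999.6 and 4210.6 normalized counts in the wild-type and 5266.6, 4913.3 and 4993.8 in RTP1,2DKO. The groups did not overlap, and the log2 fold change was 0.24 ± 0.11 (adjusted p = 0.416). Derl1, a rhomboid-like protein of the export channel, had 3936.0, 3324.1 and 3462.0 counts against 4015.8, 4173.7 and 4486.2. Its groups did not overlap either, by a narrow margin, with a log2 fold change of 0.24 ± 0.11 (adjusted p = 0.422). Both are long transcripts, of the classes whose medians were -0.04 and 0.00.

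Derl3, a relative of Derl1 known from secretory cells, varied most among mice, with 970.3, 628.8 and 1415.7 counts in the wild-type and 948.4, 1620.3 and 1423.9 in RTP1,2DKO. The log2 fold change of 0.41 ± 0.26 (adjusted p = 0.621) ranged from 0.16 without wild-type mouse 2 to 0.74 without wild-type mouse 3, and was 0.24 without RTP1,2DKO mouse 2. The ligase Syvn1 (HRD1) and its partner Sel1l, which stabilizes it, had log2 fold changes of 0.19 ± 0.16 and -0.09 ± 0.13, both smaller than the spread between mice. Herpud1, a stress-induced part of the same complex, had 5711.3 to 9161.1 counts in the wild-type and 7095.9 to 7954.2 in RTP1,2DKO, with a log2 fold change of 0.05 ± 0.15. The remaining genes were at 0.19 for Edem2, 0.05 for Derl2, -0.02 for the lectin Os9 and 0.03 for Vcp, the ATPase that pulls chains out of the membrane. Vcp had the smallest standard error of the 38 genes, 0.10, with 4834.4 to 5026.5 counts in the wild-type and 4916.4 to 5165.4 in RTP1,2DKO.

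The Atf4 branch had the highest median of the groups with several genes, 0.24 on the log2 scale, with 7 of 8 genes positive and 0 called. Atf4 (chr15:80255184-80257545) had 7385.8, 7549.8 and 8172.1 normalized counts in the wild-type and 8871.4, 9771.6 and 10803.9 in RTP1,2DKO. The groups did not overlap, and the log2 fold change of 0.35 ± 0.12 had a 95% interval of 0.10 to 0.60 (adjusted p = 0.176 with edgeR, 0.0815 with DESeq2 and 0.103 with the mice paired by number). Atf4 has an effective length of 912 bases, and its log2 fold change lay 0.26 above the median of its length class. Atf5 (chr7:44812256-44816658) had 8751.2, 7859.9 and 7178.7 counts against 8691.3, 8784.4 and 8544.2. Wild-type mouse 1 was as high as the RTP1,2DKO mice, and the log2 fold change was 0.13 ± 0.11 (adjusted p = 0.754), with an interval of -0.12 to 0.38.

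Of the genes that ATF4 and its partners are known to drive, Ppp1r15a (GADD34), which brings a phosphatase to eIF2α, had 1379.9, 1238.4 and 1125.7 normalized counts against 1700.7, 1433.7 and 1643.4. The groups did not overlap, with a log2 fold change of 0.35 ± 0.13 (adjusted p = 0.223). The pseudokinase Trib3 had 313.4, 371.1 and 312.0 counts against 441.5, 449.1 and 429.2, also without overlap, with a log2 fold change of 0.40 ± 0.15 (adjusted p = 0.251). The transcription factor Nfil3 had 282.4 to 403.5 counts against 397.3 to 512.5, with a log2 fold change of 0.35 ± 0.18 (adjusted p = 0.480).

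The other targets had values on both sides of 0, and their groups overlapped. Ddit3 (CHOP), the transcription factor tied to death under prolonged stress, had 138.6, 91.6 and 75.0 normalized counts in the wild-type and 94.8, 143.0 and 85.3 in RTP1,2DKO. The values were interleaved, and the log2 fold change was 0.09 ± 0.30. Chac1, which breaks down glutathione, had 247.2, 109.7 and 202.9 counts against 107.5, 138.7 and 175.4, with a log2 fold change of -0.40 ± 0.29 (adjusted p = 0.696) and an interval of -1.04 to 0.24. It was -0.14 without wild-type mouse 1 and -0.68 without wild-type mouse 2. The asparagine synthetase Asns had 4577.3, 2499.7 and 5014.4 counts against 3238.1, 4894.9 and 5037.9, with a log2 fold change of 0.12 ± 0.23 that was -0.13 without wild-type mouse 2. The genes with the ATF4-type letters printed above were at 0.40 for Trib3, -0.40 for Chac1, 0.12 for Asns and 0.05 for Herpud1, 3 of 4 positive. In the 11 genes with an ERSE or ERSE-II, the median was 0.03, with 8 positive and 3 negative.

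Sec61b (chr4:47474661-47483233) had the highest log2 fold change of the 38 genes. It had 2060.6, 2476.9 and 3376.0 normalized counts in the wild-type and 3346.7, 3801.4 and 3688.5 in RTP1,2DKO, and wild-type mouse 3 lay just above the lowest RTP1,2DKO mouse. The log2 fold change was 0.45 ± 0.16 (adjusted p = 0.214, and 0.083 with the mice paired by number). Without wild-type mouse 3 it was 0.67 with an adjusted p of 0.0183, the only call of any of the 38 genes in any alternative, and without wild-type mouse 1 it was 0.30 with an adjusted p of 0.472. As one of the shortest transcripts it is in the class whose median was 0.19, with the lowest values of that class and of Sec61b in the same mouse, wild-type mouse 1.

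Other genes of the pathway gave 1 call among the 133 tested, 0.752% of them, against 3.63% of all genes. This was Clgn (calmegin, chr8:83389790-83428552), a lectin chaperone related to calnexin and known from the testis. Clgn had 16629.3, 14869.7 and 12382.7 normalized counts in the wild-type and 9498.4, 8809.7 and 11003.8 in RTP1,2DKO, so all RTP1,2DKO mice were lower. Its log2 fold change was -0.58 ± 0.14 (adjusted p = 0.0377), and the adjusted p was 0.0501 with the mice paired by number. The call was lost in 5 of the 6 fits that left out a mouse, with values from -0.69 to -0.48 and adjusted p-values of up to 0.212. The markers of mature OSNs were lower in the same mice, with a median log2 fold change of -1.09 over 9 markers, and their part in the value of Clgn was not tested. Canx, the relative of Clgn, was at -0.03.

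By function, 0 of 16 other sensors and proteases were called (median log2 fold change -0.02), 1 of 29 other folding genes (0.08), 0 of 23 genes of the translocon and of glycosylation (0.11), 0 of 27 other ERAD genes (-0.02) and 0 of 38 other targets of ATF4 (0.08). The translocon genes had 19 of 23 positive (82.6%, against 52.6% of all genes) and 3 with an unadjusted p under 0.05, all higher, which held for 4.7% of all genes. These were Ostc, Sec61g and Sec11c, named after their values were seen. Their effective lengths were 525, 214 and 224 bases, and the last 2 are in the class in which 77.4% of genes were positive. Over the 133 genes, 12 had all RTP1,2DKO mice higher (9.02%, against 7.17% of all genes) and 7 had them all lower (5.26%, against 9.24%). By list, in the order above, 0, 2, 4, 0 and 6 genes had them all higher and 1, 1, 1, 4 and 0 all lower. Of the other ERAD genes 11 of 27 were positive (40.7%), and of the other ATF4 targets 23 of 38 (60.5%). In these 2 lists, 1 ERAD gene (lower) and 3 ATF4 targets (all higher) had an unadjusted p under 0.05 with edgeR.

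The mice of a group differed among themselves, and many of the 38 genes did so together. Wild-type mouse 2 was the lowest wild-type mouse in 24 of the 38 (63.2%, against 32.0% of the 13900 genes averaging 100 counts or more). Wild-type mouse 3 was the highest in 24 (63.2%, against 30.6%). RTP1,2DKO mouse 1 was the lowest of its group in 22 (57.9%, against 37.3%). The ratio of the highest to the lowest wild-type mouse had a median of 1.32 over the 38 genes, and that of RTP1,2DKO mice 1.16. Over the 13900 genes these medians were 1.28 and 1.21. The summed markers of Bowman glands and other secretory cells were lowest in the same mice, at 93360 summed FPKM in wild-type mouse 2 (156500 and 226400 in mice 1 and 3) and 136100 in RTP1,2DKO mouse 1 (215400 and 225900 in mice 2 and 3). Bpifb9b, a secreted protein among these markers, had the most counts of any gene over all mice, at 4.81% to 13.7% of the counts of a mouse. Taken singly, 8 of the 10 markers were lowest in wild-type mouse 2 (not Muc5b and Bpifa1) and 9 in RTP1,2DKO mouse 1 (not Ltf). A wild-type spread over 1.5-fold was found in 9 of the 38 genes, beside 2780 of the 13900. Of these 9, 4 (Asns, P4hb, Herpud1 and Derl3) were lowest in wild-type mouse 2 and highest in wild-type mouse 3. The other 5 had another order, with Manf and Sec61b lowest in wild-type mouse 1, Ddit3 lowest in wild-type mouse 3, and Chac1 and Ern1 highest in wild-type mouse 1. The part of gland content, or of the sex of the mice, in these values was not tested.

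Of the 38 genes, 12 had more than 1 transcript in the files. Apart from a Canx transcript with at most 1.6 estimated counts in a mouse, no transcript share separated the groups. Hspa5 had 87.7% to 94.3% of its counts on its main transcript in the wild-type and 89.9% to 92.8% in RTP1,2DKO. Atf4 had 96.7% to 98.4% and 97.3% to 97.7%. Ddit3, with few counts, had 32.4% to 42.5% on its longer transcript in the wild-type and 100% in RTP1,2DKO mouse 1 but at most 33.3% in the other RTP1,2DKO mice, which shows how coarse the split is at low counts.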

How the data were processed

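RNA-Seq libraries were used, from 3 mice of each genotype (stranded kit, KAPA in the labels and TruSeq in the methods). The authors ran kallisto (build mm10 per the labels, version not given in the sources used here) and deposited estimated counts per transcript with effective lengths. Deposited TPM values were not used. Estimated counts were summed per gene and rounded, and FPKM was computed from them and the effective lengths. Every gene that reached 1 count in any mouse was tested with edgeR 4.0.16 (quasi-likelihood, R 4.3.3), with DESeq's median-of-ratios size factors (0.907 to 1.147) and Benjamini-Hochberg adjustment over 22152 genes at 0.05, without a block. Mice are separate animals. Same-numbered mice of the groups correlated in their deviations from group means at 0.139, 0.179 and 0.103 over 18133 genes. The other combinations lay between -0.219 and 0.093, the highest being wild-type mouse 1 with RTP1,2DKO mouse 3. The numbers of the labels were taken to pair the mice on this ground alone. Paired values are given where they change the call of a gene or marker, and where said. Alternatives were DESeq2 1.42.0, TMM, a count filter, a length offset, the pairing and each mouse left out. The main fit was also run on simulated counts. There, a larger share of its calls was false than the threshold of 0.05 allows, and some 2-fold changes were not called. Gene positions are RefSeq GRCm38.p6. The 38 genes and the lists of other pathway and marker genes were chosen by known function, without a rule on measured values, but with earlier results of these data known. Named are all 38, list genes past the threshold, and others where said. Length classes were added after seeing the data. Protein ends were not analysed here. With 31125410 to 41636996 counts per mouse, the spread between mice limits precision.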

Additional observations from a re-analysis of the deposited data

How the results depend on the processing

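Leaving out a mouse gave 524 to 716 called genes against 804 over all mice (892 with the replicate block, 1067 with DESeq2), and 0 to 1 calls among the 38 genes, the 1 being Sec61b, higher, without wild-type mouse 3. Among the other pathway genes, calls fell from 1 to 0 with the replicate block and ranged from 0 to 1 with a mouse left out. The block changed no other call of the 38 genes or the other pathway genes. Of the 38 log2 fold changes, 22 kept their sign in all 11 alternatives (17 positive, 5 negative) and 16 turned, all uncalled. TMM, DESeq2, the filter and the length offset turned none. With the block, Manf was at 0.0295. With a mouse left out, values ranged from -0.139 to 0.0116 for Eif2ak3, -0.17 to 0.31 for Ern1, -0.1817 to 0.0116 for Hspa5, -0.0666 to 0.0048 for Canx, -0.0428 to 0.2201 for Pdia3, -0.14 to 0.0062 for Pdia4, -0.0653 to 0.148 for Pdia6, -0.0327 to 0.2802 for P4hb, -0.0527 to 0.1587 for Dnajb11, -0.0828 to 0.1185 for Dnajc3, -0.0508 to 0.1477 for Hyou1, -0.32 to 0.20 for Manf, -0.10 to 0.24 for Herpud1, -0.1298 to 0.0945 for Os9, -0.18 to 0.37 for Ddit3 and -0.13 to 0.31 for Asns. Without a turn in sign, Chac1 ranged from -0.68 to -0.14 and Derl3 from 0.16 to 0.74. The cause of these moves was not tested. With 3 mice a group, changes of 1.5-fold and less could go uncalled, as could some of 2-fold. Changes in a small part of the cells would be diluted in whole mucosa.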
